A study of Homo sapiens with 24 samples.

Results

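The genes described here are the human ZNF genes that were well measured in U2OS cells, a line derived from an osteosarcoma. A gene was included when its symbol was ZNF followed only by digits and its mean signal in the 2 sgNS+EV libraries at 0 h was at least 10. The rule kept 186 of the 351 such ZNF genes in the table and 1.48% of its 12547 genes. The other 165 ZNF genes were below 10. ZNF408, ZNF71 and ZNF613 lay just inside the limit at 10.1, 10.1 and 10.2, and ZNF549, ZNF414 and ZNF611 just outside it at 10.0, 9.91 and 9.89. ZNF207 (285), ZNF664 (137) and ZNF146 (95.8) had the largest values.

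The series measured polyA RNA of 4 U2OS genotypes to follow how QKI, an RNA-binding protein of the STAR family, affects mRNA stability. Cells with a QKI guide carried intact QKI7 (sgQKI+QKI7-WT, here QKI7-WT), QKI7 labelled △KH (sgQKI+QKI7-△KH, here QKI7-dKH) or an empty vector (sgQKI+EV), and cells with the sgNS guide carried the empty vector (sgNS+EV). Every genotype was taken at 0, 4 and 8 h with 5 µg/mL actinomycin D, which blocks transcription, and 200 µM sodium arsenite, an oxidative stressor. No group had actinomycin D without arsenite, so the times follow loss of RNA under stress. Each of the 12 groups had 2 libraries. Nothing in the labels says whether these came from separate cultures or whether a line was 1 clone. P-values therefore measure the spread between libraries, estimated for each gene over all 12 groups together. The QKI7-WT pair at 4 h, the furthest apart with a mean absolute gap of 0.32 log2 over the ZNF genes, enters the spread of every comparison.

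The values are a linear signal, scaled to ERCC spike-in RNA as far as the near-constant spike-in sums of 11480 to 11940 per library show, with unknown read depth. Less RNA per cell and fewer cells behind a library cannot be told apart. The unit before that scaling is not given, so levels are compared within a gene and not between genes. Differences are log2 of the signal plus 1 from a limma fit over all 24 libraries and 12547 genes, with Benjamini-Hochberg adjustment and a threshold of 0.05. A gene that passed is called higher, lower, risen or fallen. QKI itself had a signal at 0 h of 60.4 and 46.3 in QKI7-WT cells, 47.6 and 50.2 in QKI7-dKH cells, 35.98 and 32.7 in sgQKI+EV cells and 59.98 and 48.2 in sgNS+EV cells. At 8 h it was 10.6 and 11.7 in sgQKI+EV cells, against 24.1 and 21.9 in sgNS+EV cells, a log2 difference of -0.98 ± 0.14 (SE; limma adjusted p = 9.5e-05). QKI mRNA was thus still measured in the guide-carrying cells, and the table does not say how much of it in the add-back cells came from the added QKI7. Summed over all genes, the deposited signal was 690400 to 1368000 in the 24 libraries. Of the osteoblast or mesenchymal markers, RUNX2, SPP1, COL1A1 and SPARC were in the table and 5 of 9 were not; their summed signal was 696.1 to 1537 per library. EPCAM and CLDN4 of 6 epithelial markers summed to 6.44 to 24.96, and none of 7 blood markers was in the table.

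C2H2 zinc fingers are short protein loops held around a zinc ion by a pair of cysteines and a pair of histidines, and arrays of them read DNA sequence. The largest ZNF subfamily joins such an array to a KRAB domain, which recruits TRIM28 and heterochromatin enzymes to retrotransposons and other repeats. Other ZNF proteins activate transcription, sit in corepressor complexes, or act on RNA and ribosomes. KRAB ZNF genes are packed into clusters on chromosome 19 that arose by duplication, and mRNAs of transcription regulators are known as short-lived in many cells.

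All 186 genes were found by symbol in GENCODE 29, and each was represented by the transcript with the longest complete coding sequence, which need not be the one U2OS cells express. A search for 2 to 4 residues between the cysteines, 12 between cysteine and histidine and 3 to 5 between the histidines found at least 1 finger in 183 of them, with a median of 10 and at most 34. ZNF185, ZNF330 and ZNF703 had none by this pattern, whose spacing between the cysteines was widened after a first count had been seen. 67 genes (36.0%) carried a KRAB A-box motif, against 1.59% of 11328 matched genes. 67 (36.0%) lay on chromosome 19, against 7.30% of matched genes. The ZNF genes below 10 carried the KRAB motif in 57.0% and lay on chromosome 19 in 53.9%. G+C at codon position 3 had a median of 46.8% in the 186 genes and 58.5% in all matched genes. How reads shared between close copies were divided is not given beyond the name RSEM, so levels of near-identical cluster neighbours are uncertain.

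The genes with the largest fitted losses over 8 h in sgQKI+EV cells are shown with 30 bases of the 3′ untranslated region (UTR). The pentamer ATTTA, the core of AU-rich elements, is in capitals. Of the stretches that open a few bases before a match, the first with most matches was taken. AU-rich elements are bound by decay factors of the ZFP36 family in many mRNAs. The sequences are on GRCh38 in the strand of the mRNA, and ZNF627 and ZNF574, which belong to the same 8 genes, had no match.
ZNF830, chr17:34963427-34963456, plus strand: gaacccATTTAtgtttttcaggttttttct
ZNF217, chr20:53567472-53567501, minus strand: gctggaATTTAaacctgtATTTAaaaaaaa
ZNF608, chr5:124637369-124637398, minus strand: ggtacaATTTAgatgtctatttggtggctc
ZNF35, chr3:44660110-44660139, plus strand: aggctaATTTAaaacaaaaagtaagcacct
ZNF551, chr19:57690585-57690614, plus strand: agggacATTTAtattATTTAtagatttttg
ZNF12, chr7:6690610-6690639, minus strand: gtaaaaATTTAtaaatattaagaatgtata
ZNF12 had 10 matches in its whole 3′ UTR, ZNF217 and ZNF551 had 7 each, ZNF830 had 3, and ZNF608 and ZNF35 had 1 each. At least 1 match was present in 133 of the 186 genes (71.5%), against 67.5% of matched genes, so the pentamer was about as common here as elsewhere. A match is a run of letters and not a shown site.

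Nearly every ZNF mRNA fell during the chase, and their median fell further than that of all genes. From 0 h to 8 h, 184 of the 186 genes were lower in QKI7-WT cells (90.0% of all genes tested were lower), 182 in QKI7-dKH cells (90.6%) and 185 in sgQKI+EV cells (90.5%). Since most genes fell, these counts say little about the ZNF genes, and the size of the loss says more. The median log2 change was -1.105 in QKI7-WT cells, -1.13 in QKI7-dKH cells and -1.17 in sgQKI+EV cells. Over all genes it was -0.77, -0.77 and -0.82. A loss of at least 2-fold was fitted for 112 ZNF genes (60.2%) in QKI7-WT cells, 116 (62.4%) in QKI7-dKH cells and 118 (63.4%) in sgQKI+EV cells, against 31.5%, 30.8% and 35.5% of all genes. In sgNS+EV cells the median was -0.996, against -0.70 over all genes, and this is a description because the genes were chosen on the 0 h libraries. If loss were exponential from 0 h to 8 h, the median apparent half-life of the ZNF genes would be 6.57 h in QKI7-WT, 6.78 h in QKI7-dKH, 6.42 h in sgQKI+EV and 7.25 h in sgNS+EV cells. In the same order of genotypes it was 9.17, 9.38, 8.68 and 10.2 h over 12264, 12304, 12290 and 12262 of the 12547 genes. The others had no less signal at 8 h than at 0 h and thus no half-life, while all 186 ZNF genes had one.

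**Figure D1:**
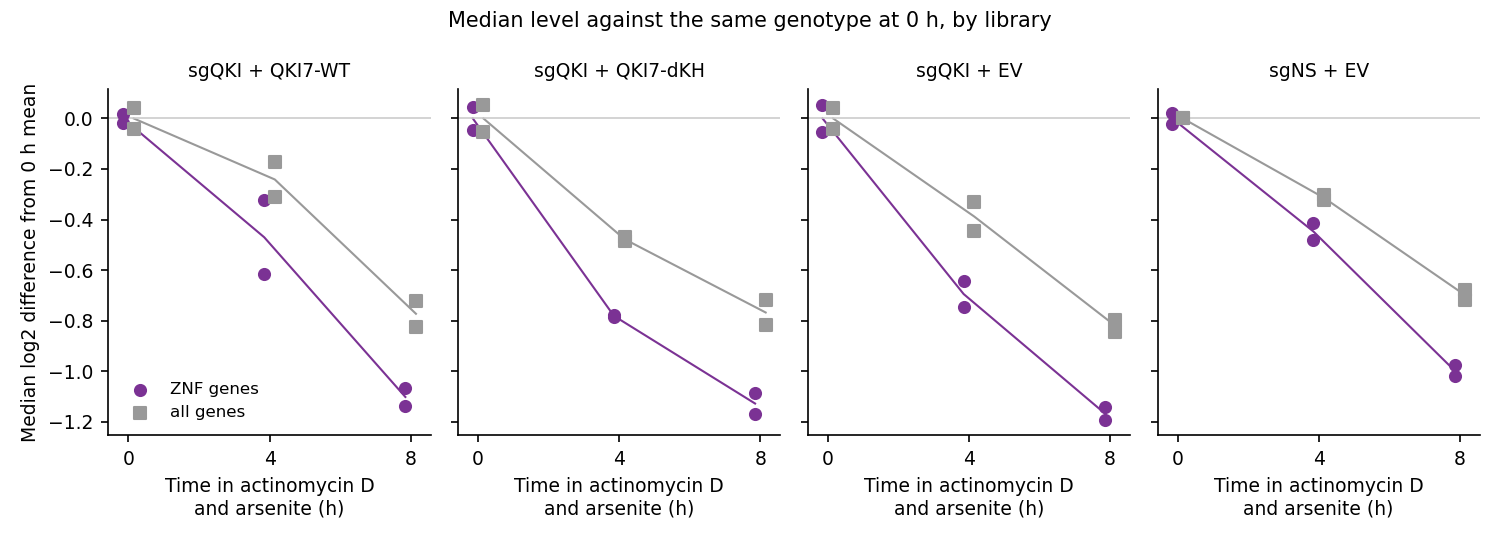
Median log2 difference from the 0 h mean of the same genotype (vertical axis) at 0, 4 and 8 h (horizontal axis), with a panel per genotype. Each point is 1 library, circles are the median of the 186 ZNF genes, squares the median of all 12547 genes, and lines join group means. The circles lie below the squares in every library at 8 h, and the 2 QKI7-WT libraries at 4 h stand apart at -0.32 and -0.62.

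These directions depend on the spike-in scale. Scaled to library totals, the median of all genes in sgQKI+EV cells was -0.26 in place of -0.82, that of the ZNF genes -0.59, and 147 ZNF genes were lower and 5 higher. After quantile normalisation, which sets the distributions equal, the ZNF median was -0.19, with 93 lower and 38 higher. The quantile splits were 87 lower and 38 higher in QKI7-WT cells and 91 lower and 37 higher in QKI7-dKH cells. In each of these genotypes and on each of these scales the ZNF median lay below that of all genes.

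ZNF830, a protein of the spliceosome, had the largest fitted loss in sgQKI+EV cells on the scale of log2 of the signal plus 1. Its signal at 0 h was 29.1 and 30.3 in QKI7-WT cells, 32.8 and 33.7 in QKI7-dKH cells, 29.7 and 27.2 in sgQKI+EV cells and 30.2 and 28.7 in sgNS+EV cells. At 8 h it was 3.40 and 2.58 in QKI7-WT cells, 3.54 and 3.01 in QKI7-dKH cells, 3.49 and 3.06 in sgQKI+EV cells and 3.18 and 3.40 in sgNS+EV cells. The 8 h libraries of every genotype lay far below the 0 h ones, and the log2 change was -2.79 ± 0.18 in sgQKI+EV cells (SE; limma adjusted p = 3.8e-12), or 6.89-fold lower. Without the added constant ZNF627 had slightly less left in these cells, 11.1% of its 0 h signal against 11.5% for ZNF830.

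ZNF217, a finger protein of LSD1-CoREST corepressor complexes that is amplified in some cancers, had the second largest fitted loss in sgQKI+EV cells. Its signal at 0 h was 47.6 and 44.03 in QKI7-WT cells, 51.4 and 48.6 in QKI7-dKH cells, 45.8 and 40.9 in sgQKI+EV cells and 43.3 and 42.9 in sgNS+EV cells. It was already low at 4 h, with 14.9 and 11.6 in QKI7-WT cells, 11.5 and 10.6 in QKI7-dKH cells, 9.87 and 9.27 in sgQKI+EV cells and 17.3 and 14.97 in sgNS+EV cells. At 8 h it was 6.30 and 6.21 in QKI7-WT cells, 7.22 and 7.73 in QKI7-dKH cells, 5.43 and 5.61 in sgQKI+EV cells and 7.85 and 7.61 in sgNS+EV cells. The change over 8 h was -2.69 in QKI7-WT, -2.59 in QKI7-dKH and -2.76 ± 0.10 in sgQKI+EV cells (SE; limma adjusted p = 7.0e-16 in sgQKI+EV cells). About 22.1% of its 0 h signal was left in sgQKI+EV cells after 4 h and 12.8% after 8 h.

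ZNF608, a paralog of ZNF609, showed the same early drop. Its signal at 0 h was 61.05 and 61.9 in QKI7-WT cells, 68.1 and 61.1 in QKI7-dKH cells, 61.5 and 57.2 in sgQKI+EV cells and 63.1 and 56.8 in sgNS+EV cells. At 4 h it was 18.2 and 14.1 in QKI7-WT cells, 13.8 and 12.95 in QKI7-dKH cells, 13.5 and 11.6 in sgQKI+EV cells and 19.3 and 16.6 in sgNS+EV cells. At 8 h it was 8.90 and 8.63 in QKI7-WT cells, 7.58 and 8.49 in QKI7-dKH cells, 7.95 and 8.36 in sgQKI+EV cells and 11.3 and 10.5 in sgNS+EV cells. The fitted change in sgQKI+EV cells was -2.72 ± 0.11 (SE; limma adjusted p = 2.3e-15), and in QKI7-dKH cells, at -2.86, it was larger than that of ZNF217. The remaining 5 of the 8 largest losses in sgQKI+EV cells were ZNF627 (-2.55), ZNF35 (-2.42), ZNF551 (-2.27), ZNF574 (-2.21) and ZNF12 (-2.20). The same 8 genes changed by -1.96 to -2.95 in QKI7-WT cells and by -1.98 to -3.00 in QKI7-dKH cells. They passed without any 1 of the libraries compared, in each of the 3 genotypes.

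The other end held mRNAs with small losses on this scale. ZNF593, whose yeast counterpart exports the large ribosomal subunit, had 40.4 and 53.2 in QKI7-WT cells, 48.6 and 42.4 in QKI7-dKH cells, 41.7 and 48.1 in sgQKI+EV cells and 46.2 and 40.3 in sgNS+EV cells at 0 h. At 8 h it had 37.9 and 40.7 in QKI7-WT cells, 42.9 and 41.98 in QKI7-dKH cells, 34.9 and 37.9 in sgQKI+EV cells and 32.3 and 34.7 in sgNS+EV cells. The 0 h and 8 h values overlapped in QKI7-WT and QKI7-dKH cells. Its log2 change was -0.23 in QKI7-WT (limma adjusted p = 0.062), -0.10 in QKI7-dKH (adjusted p = 0.43) and -0.29 ± 0.12 in sgQKI+EV cells (adjusted p = 0.022).

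ZNF771 was the 1 gene of 186 that did not pass in sgQKI+EV cells. It had 12.1 and 18.3 in QKI7-WT cells, 19.3 and 13.7 in QKI7-dKH cells, 14.7 and 11.9 in sgQKI+EV cells and 14.6 and 15.3 in sgNS+EV cells at 0 h, and 11.1 and 9.71 in QKI7-WT cells, 12.4 and 11.99 in QKI7-dKH cells, 11.6 and 10.1 in sgQKI+EV cells and 10.9 and 10.97 in sgNS+EV cells at 8 h. Its 0 h replicates were far apart in both add-back genotypes, and its log2 change in sgQKI+EV cells was -0.27 ± 0.18 (SE; limma adjusted p = 0.16). In QKI7-WT cells it fell by 0.48 (limma adjusted p = 0.017), and 68.3% of its 0 h signal was left at 8 h. At 4 h 122.2% was left in sgQKI+EV and 68.4% in sgNS+EV cells. The other small losses in sgQKI+EV cells were ZNF32 (-0.31), ZNF133 (-0.32), ZNF444 (-0.34), ZNF205 (-0.34), ZNF428 (-0.34) and ZNF23 (-0.34), which all passed. These 8 genes rose after quantile normalisation, and ZNF593, ZNF32, ZNF133, ZNF444 and ZNF205 rose on library totals. ZNF23 had changes of -0.71 in QKI7-WT and -0.63 in QKI7-dKH cells, but the difference in change between QKI7-WT and sgQKI+EV cells, -0.37 ± 0.18 (SE), did not pass (limma adjusted p = 0.9993).

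**Figure D2:**
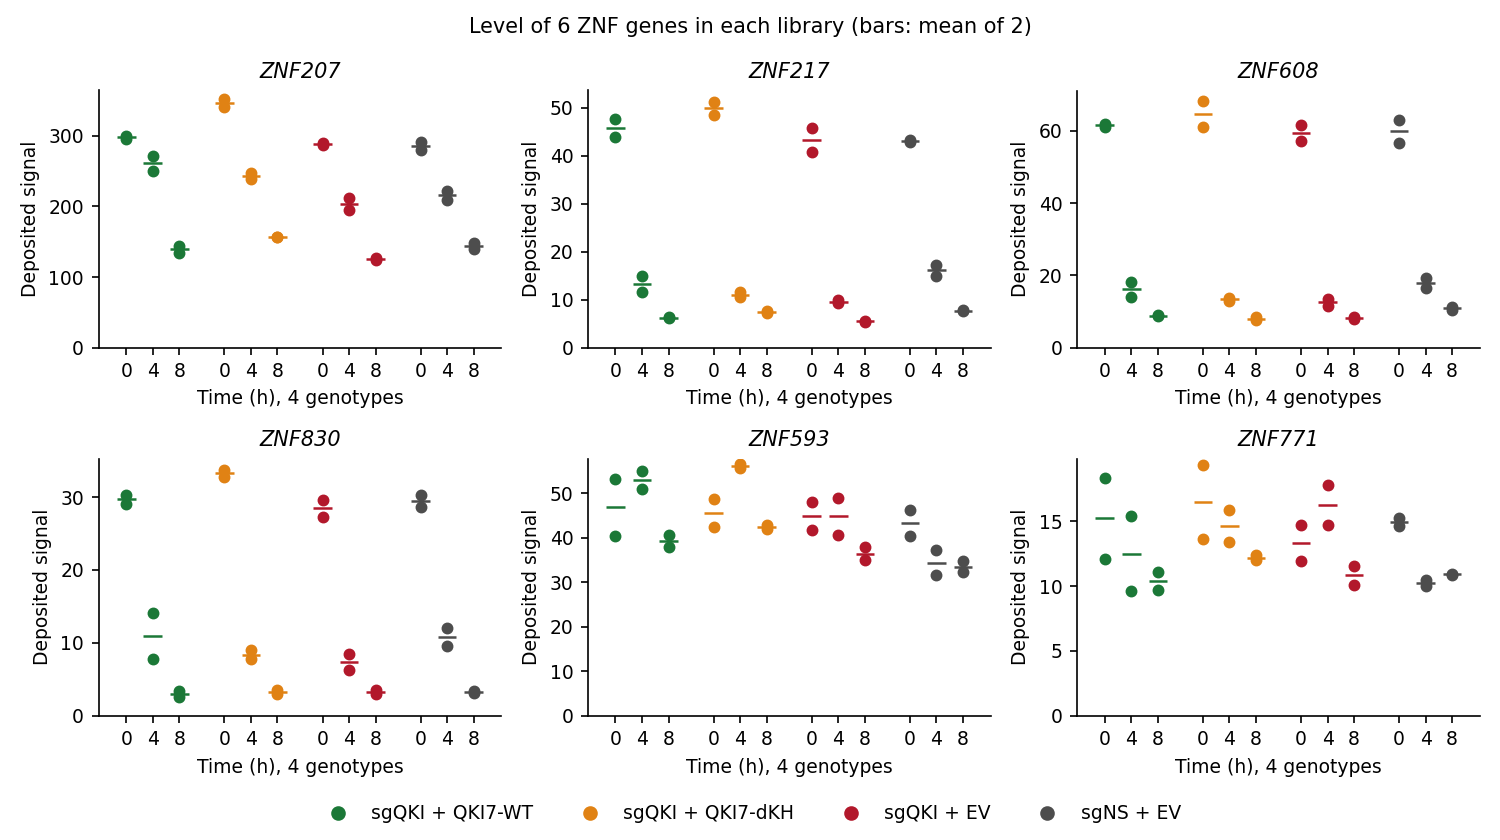
Deposited signal (vertical axis, linear, from 0) of 6 ZNF genes in all 24 libraries, at 0, 4 and 8 h (horizontal axis) within each genotype. Points are libraries and bars the mean of 2. ZNF217, ZNF608 and ZNF830 drop steeply by 4 h, ZNF207 falls more slowly, and ZNF593 and ZNF771 keep most of their 0 h signal at 8 h, with 68.3% of that of ZNF771 left in QKI7-WT cells.

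Grouped by what the proteins do, the medians ran from -1.54 to -0.97 in sgQKI+EV cells, and these differences between groups were not tested. All members of the 4 groups fell in these cells, where 90.5% of all genes fell, so the counts say little. The medians are set beside -0.82 over all genes and -1.17 over the 186 ZNF genes. Of 15 genes of corepressor or chromatin complexes, the median was -1.54, and 13 were at least 2-fold lower, against 35.5% of all genes. Most of the 186 ZNF genes also had a fitted loss of at least 2-fold. Beside ZNF217, ZNF609, which binds cohesin loader and Integrator proteins, changed by -2.03, ZNF532, a partner of ZNF592 and ZNF687, by -1.24, and ZNF512, which binds pericentromeric repeats, by -0.51. The 7 KRAB proteins with a known heterochromatin role had a median of -1.32. ZNF317 changed by -1.37, ZNF268 by -1.32, ZNF445, which protects genomic imprints, by -1.27, and ZNF274, which brings SETDB1 to ZNF gene clusters, by -0.87.

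The 9 genes listed as regulators of transcription had a median of -1.004. ZNF281, which binds G-rich promoter sequences, changed by -1.89, ZNF384 by -0.88, ZNF410, an activator of CHD4, by -0.81 and ZNF219 by -0.62. The 8 genes whose proteins act on RNA or ribosomes had a median of -0.97 and a range from ZNF830 to ZNF593. ZNF638, which silences unintegrated retroviral DNA, changed by -1.20, ZNF622, which helps mature the large ribosomal subunit, by -0.79 and ZNF598, the ubiquitin ligase that senses collided ribosomes, by -0.57. The order of the 4 role groups was the same in QKI7-dKH cells, with medians of -1.34, -1.30, -0.89 and -0.815, and in QKI7-WT cells, with -1.40, -1.35, -0.92 and -0.78.

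ZNF207, a microtubule and kinetochore protein that also binds RNA, had 295 and 300.3 in QKI7-WT cells, 353 and 341 in QKI7-dKH cells, 287 and 289.9 in sgQKI+EV cells and 279.8 and 291 in sgNS+EV cells at 0 h. At 8 h it had 144 and 134 in QKI7-WT cells, 156 and 157 in QKI7-dKH cells, 127 and 125 in sgQKI+EV cells and 139 and 148 in sgNS+EV cells. Its change in sgQKI+EV cells was -1.19 ± 0.06 (SE; limma adjusted p = 3.4e-13), close to the ZNF median.

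Other zinc finger families gave a scale for these losses in sgQKI+EV cells. The median was -1.96 for 9 KLF genes, -1.41 for 32 ZBTB genes, -1.002 for 9 ZFP genes and -0.90 for 14 ZSCAN genes, and all members of these 4 families fell, as did 90.5% of all genes. The 165 ZNF genes below 10 had -1.01, a value that the added constant of 1 pulls toward 0. Without the constant, a median of 41.1% of the 0 h signal was left at 8 h in these genes. In the 186 ZNF genes at 10 or more it was 42.2%, so the lower ZNF genes lost about as much. In the same cells 26 immediate-early and other labile mRNAs had a median of -2.82 and 74 cytosolic ribosomal protein mRNAs -0.21. All 28 measured cofactors of KRAB proteins fell, as did 90.5% of all genes, and their median of -0.77 was no larger a loss than the -0.82 over all genes. SUV39H1, a histone H3K9 methyltransferase, changed by -1.76 and CBX5, which encodes HP1 alpha, by -1.36.

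Sequence features went with the loss among the 186 genes much as among all genes. With no ATTTA in the 3′ UTR, 53 genes had a median 8 h change of -0.89 in sgQKI+EV cells. With 1 to 3 matches, 63 genes had -1.16, with 4 to 7, 41 genes had -1.24, and with 8 or more, 29 genes had -1.51. Spearman's rho over the genes was -0.41 for the number of matches and -0.39 for 3′ UTR length, and over 11328 matched genes -0.40 and -0.42. Longer 3′ UTRs hold more matches, so these 2 features share what they describe. The pattern was alike in QKI7-WT cells, with medians from -0.88 to -1.41, and in QKI7-dKH cells, with -0.81 to -1.34. ZNF574 and ZNF627, among the fastest, had no match, and of the 8 slowest only ZNF428 and ZNF23 had any.

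The KRAB motif separated the genes little. The 67 genes with the motif had a median of -1.22 in sgQKI+EV cells and the 119 without it -1.16, and the 67 genes on chromosome 19 had -1.22. With 10 or more fingers, 98 genes had -1.27, with 5 to 9, 50 genes had -1.11, and with 0 to 4, 38 genes had -1.005. Split at the median of G+C at codon position 3, the 93 genes with less had -1.27 and the 93 with more -0.97.

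**Figure D3:**
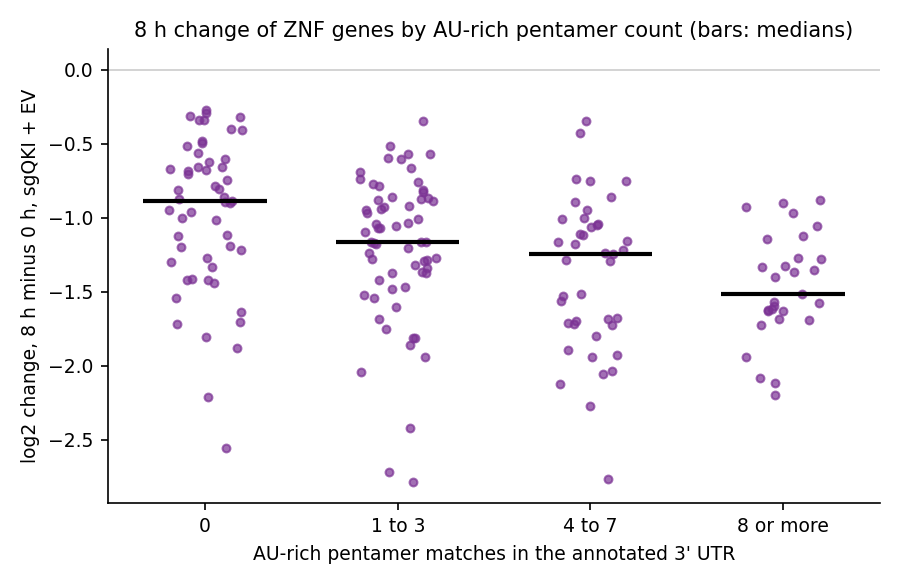
The log2 change from 0 h to 8 h in sgQKI+EV cells (vertical axis) of each of the 186 ZNF genes, by the number of AU-rich pentamers in the annotated 3′ UTR (horizontal axis). Points are genes, spread sideways at random, and bars are medians. The medians step down from -0.89 with no match to -1.51 with 8 or more, while the groups overlap widely.

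Before the chase the genotypes differed little in these genes. QKI7-dKH cells were higher than sgQKI+EV cells at 8 of the 186 genes (12.6% of all genes tested were higher), with a median difference of 0.17 against 0.19 over all genes. QKI7-WT cells were lower than QKI7-dKH cells at 2 (3.71% of all genes), and QKI7-WT and sgQKI+EV cells differed at 0 in limma (0.0877% of all genes passed), with 1 of the 186 at an unadjusted p under 0.05. On library totals 1 gene passed in the first comparison, and it was lower in QKI7-dKH cells, while 0 passed in the second. Other fits gave more: with the G+C slope of each library as a term, a fit added after the data had been seen, 29 passed in the first and 16 in the second, and in a fit of the compared groups alone 23 passed in the first and 2 in the second. ZNF114, a KRAB gene, had the largest difference. Its signal at 0 h was 57.6 and 61.1 in QKI7-WT cells, 85.04 and 82.9 in QKI7-dKH cells, 57.3 and 58.4 in sgQKI+EV cells and 65.9 and 67.02 in sgNS+EV cells. Both QKI7-dKH libraries lay above the 6 others. The log2 difference was 0.53 ± 0.10 for QKI7-dKH minus sgQKI+EV (SE; limma adjusted p = 0.0074) and -0.49 ± 0.10 for QKI7-WT minus QKI7-dKH (adjusted p = 0.0098).

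ZNF404, the other gene in both comparisons, had 29.5 and 27.9 in QKI7-WT cells, 38.5 and 35.4 in QKI7-dKH cells, 28.3 and 23.7 in sgQKI+EV cells and 24.3 and 22.02 in sgNS+EV cells at 0 h, and again QKI7-dKH libraries were the highest. Its differences were 0.49 and -0.35. ZNF283 (0.40), ZNF106 (0.27), ZNF207 (0.27), ZNF45 (0.25), ZNF22 (0.24) and ZNF185 (0.23) were the other 6 higher in QKI7-dKH than in sgQKI+EV cells. None of these 8 passed in every fit that left out 1 library, and the count was 1 without sgQKI+EV replicate 1 and 0 without either sgQKI+EV replicate 2 or QKI7-dKH replicate 1. For QKI7-WT minus QKI7-dKH it was 1 without QKI7-WT replicate 2 and 0 without any 1 of the other libraries. At 0 h the median of sgQKI+EV minus sgNS+EV was -0.09, against -0.06 over all genes, given without a test because the sgNS+EV libraries chose the genes.

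At 8 h the QKI-targeted cells had less of many ZNF mRNAs. In sgQKI+EV compared with sgNS+EV cells, 57 of the 186 genes were lower (34.0% of all genes were lower at 8 h) and none was higher, and 84 had an unadjusted p under 0.05 in limma. The median difference was -0.22, against -0.195 over all genes, so the ZNF genes moved with the whole table. On library totals the count fell to 2, and to 8 after quantile normalisation, while a fit of the compared groups alone gave 105. Leaving out sgNS+EV replicate 2 gave 23, and leaving out sgQKI+EV replicate 1 or 2 gave 35 or 26.

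ZNF395 had the largest difference. It had 11.4 and 10.4 in sgQKI+EV cells, against 16.3 and 16.9 in sgNS+EV cells at 8 h, a log2 difference of -0.56 ± 0.08 (SE; limma adjusted p = 9.2e-05). At 0 h it already had 26.4 and 24.7 in sgQKI+EV cells, against 31.99 and 32.4 in sgNS+EV cells. ZNF32 followed at -0.52 ± 0.08 (SE; limma adjusted p = 9.8e-05), with 54.01 and 52.8 in sgQKI+EV cells, against 78.4 and 75.6 in sgNS+EV cells at 8 h. At 0 h it had 66.3 and 66.8 in sgQKI+EV cells, against 86.9 and 90.98 in sgNS+EV cells. In both genes the 2 groups did not overlap at either time. Both were picked by their 8 h difference, and the sgNS+EV 0 h libraries chose the ZNF genes, so this is only a description. ZNF277 (-0.49), ZNF766 (-0.48), ZNF467 (-0.48), ZNF462 (-0.47), ZNF581 (-0.47) and ZNF532 (-0.46) came next. ZNF395, ZNF32, ZNF467 and ZNF532 passed whichever library was left out.

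QKI binds the sequence ACTAAC or ACTAAT (as RNA, ACUAAY). 72 of the 186 genes (38.7%) had at least 1 such match in the annotated 3′ UTR, against 32.8% of matched genes. The 72 genes had a median difference at 8 h of -0.20 in sgQKI+EV minus sgNS+EV cells, and the 114 without it -0.23. At 4 h the same medians lay further apart, at -0.47 with 59 of 72 lower and -0.25 with 56 of 114 lower (34.0% of all genes were lower). Spearman's rho with the number of matches at 4 h was -0.38 over the 186 genes and -0.35 over 11328 matched genes. Other features went with the same 4 h difference as much or more. Over the 186 genes rho was -0.56 with ATTTA matches, -0.38 with 3′ UTR length and 0.74 with G+C at codon position 3. For the change from 4 h to 8 h in sgQKI+EV minus that in sgNS+EV cells the medians were 0.27 with the motif and 0.011 without it. These splits are descriptions and were not tested. ZNF532, with 2 matches, is shown because it is among the 8 largest differences at 8 h, with the motif in capitals.
ZNF532, chr18:58984851-58984880, plus strand: gggttaACTAATtacaggctaaaataatgc
The motif was searched on the mRNA strand of the annotated 3′ UTR only, and ACTAAT can overlap ATTTA, because it ends in the bases AT that open ATTTA. These letters say nothing of binding in U2OS cells.

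The comparison at 4 h was added after the data had been seen. In sgQKI+EV compared with sgNS+EV cells, 115 of the 186 genes were lower (34.0% of all genes were lower at 4 h) and 5 were higher (6.74% of all genes). The median difference was -0.35, against -0.15 over all genes. ZNF711, which works with the histone demethylase PHF8, was lowest. It had 25.3 and 15.5 in QKI7-WT cells, 13.7 and 12.7 in QKI7-dKH cells, 13.7 and 13.1 in sgQKI+EV cells and 27.5 and 25.6 in sgNS+EV cells at 4 h. The 2 QKI7-WT libraries lay at opposite ends, 1 beside sgNS+EV and 1 nearer to sgQKI+EV. The difference of sgQKI+EV minus sgNS+EV was -0.93 ± 0.15 (SE; limma adjusted p = 2.1e-04), or 1.91-fold lower.

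ZNF644, a partner of the EHMT methyltransferases, had 21.4 and 9.66 in QKI7-WT cells, 9.29 and 8.20 in QKI7-dKH cells, 10.3 and 10.3 in sgQKI+EV cells and 22.1 and 18.9 in sgNS+EV cells at 4 h. By 8 h it had 5.24 and 6.39 in sgQKI+EV cells, against 6.50 and 5.35 in sgNS+EV cells, and there the 2 genotypes overlapped. Its 4 h difference was -0.92 ± 0.24 (SE; limma adjusted p = 0.0049). ZNF845 (-0.78), ZNF195 (-0.78), ZNF654 (-0.77), ZNF83 (-0.74), ZNF28 (-0.73) and ZNF148 (-0.71) followed. ZNF771 (0.61), ZNF524 (0.50), ZNF787 (0.37), ZNF593 (0.37) and ZNF511 (0.35) were the 5 that were higher. ZNF524 had 14.6 and 12.4 in sgQKI+EV cells, against 8.88 and 9.57 in sgNS+EV cells at 4 h, and 10.4 and 9.87 in sgQKI+EV cells, against 12.3 and 11.3 in sgNS+EV cells at 8 h, where the order was turned round. Leaving out sgNS+EV replicate 1 at 4 h gave 68 genes in place of 120, and leaving out sgQKI+EV replicate 2 gave 75. After quantile normalisation 72 were lower and 30 higher.

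For genes at either end, the first zinc finger that lies within a single exon is shown. ZNF593, also among the highest at 4 h, is not shown. A finger need not have the G+C share of its whole coding sequence, as ZNF644 shows below. Each run codes from the first cysteine to the last histidine of a finger, on GRCh38, with codon position 3 in capitals. Lowest at 4 h:
ZNF711, chrX:85270695-85270757, plus strand: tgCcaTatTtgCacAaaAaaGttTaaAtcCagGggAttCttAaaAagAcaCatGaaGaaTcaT
ZNF644, chr1:90940058-90940120, minus strand: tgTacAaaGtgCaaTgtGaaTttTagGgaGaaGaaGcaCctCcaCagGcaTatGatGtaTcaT
ZNF845, chr19:53351408-53351470, plus strand: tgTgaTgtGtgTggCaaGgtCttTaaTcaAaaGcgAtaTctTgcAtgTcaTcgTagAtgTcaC
ZNF195, chr11:3360210-3360272, minus strand: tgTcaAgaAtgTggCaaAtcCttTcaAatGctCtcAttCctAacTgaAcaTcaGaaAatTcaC
Highest at 4 h:
ZNF771, chr16:30417606-30417668, plus strand: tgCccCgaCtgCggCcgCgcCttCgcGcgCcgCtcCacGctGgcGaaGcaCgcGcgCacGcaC
ZNF524, chr19:55602458-55602520, plus strand: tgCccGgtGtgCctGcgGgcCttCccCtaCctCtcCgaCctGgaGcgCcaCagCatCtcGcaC
ZNF787, chr19:56088908-56088970, minus strand: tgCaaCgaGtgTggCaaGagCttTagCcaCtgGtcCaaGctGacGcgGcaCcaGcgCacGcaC
In these fingers G and C filled 42.9% of these positions in ZNF711, 61.9% in ZNF644, 28.6% in ZNF845 and 33.3% in ZNF195. They filled all of them in ZNF771 and ZNF524 and 90.5% in ZNF787. Over the whole coding sequence the share was 32.1% in ZNF711, 29.7% in ZNF644, 88.7% in ZNF771 and 78.5% in ZNF524.

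Over the 186 genes the 4 h difference and this share had a Spearman rho of 0.74, and over 11328 matched genes 0.64. Of the 93 genes with the smaller share, 81 were lower and 0 higher, with a median of -0.50. Of the other 93, 34 were lower and 5 higher, with a median of -0.12. At 8 h the same rho was -0.09, with medians of -0.19 and -0.245. All genes of a library share its depth and preparation, so the rho describes these libraries. With each library's slope on this share as a term of the fit, also added after the data had been seen, 7 genes were lower and none higher at 4 h, and the median was -0.195. That slope was estimated from the same values, and at 4 h it was negative in both sgNS+EV and positive in both sgQKI+EV libraries. The term thus overlaps the genotype difference, and this fit cannot tell them apart. ZNF644 (0.17), ZNF771 (-0.19) and ZNF511 (-0.020) turned sign in that fit.

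**Figure D4:**
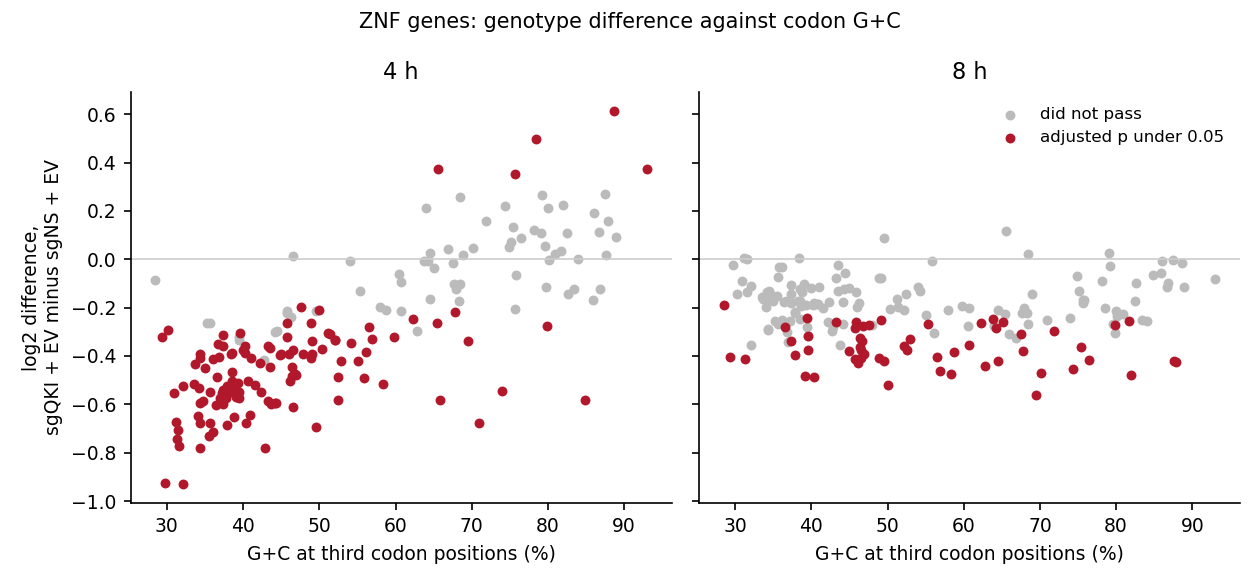
Log2 difference of sgQKI+EV minus sgNS+EV (vertical axis) against G+C at codon position 3 in percent (horizontal axis) for the 186 ZNF genes, at 4 h (left) and 8 h (right). Red points passed the threshold. At 4 h the points climb with G+C (rho 0.74), from ZNF711 at -0.93 and 32.1% to ZNF771 at 0.61 and 88.7%, and at 8 h they lie flat (rho -0.09).

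The slope on G+C differed between libraries as well as between genotypes. Across all matched genes, Pearson's r of a gene's deviation from its mean with G+C at codon position 3 was -0.51 and 0.23 in the 2 QKI7-WT libraries at 4 h. It was 0.13 and 0.31 in QKI7-dKH, 0.47 and 0.31 in sgQKI+EV and -0.57 and -0.50 in sgNS+EV libraries at 4 h. At 0 h r was -0.296 and 0.034 in QKI7-WT, -0.131 and -0.265 in QKI7-dKH and -0.129 and -0.118 in sgQKI+EV libraries. In the sgNS+EV libraries it was -0.105 and -0.008 at 0 h. At 8 h all 8 libraries lay between 0.14 and 0.27. The QKI7-WT pair at 4 h also differed most among the 12 pairs, with a mean absolute gap of 0.32 log2 over the ZNF genes, against 0.08 to 0.14 in the others. The part of library composition in the 4 h differences was not tested.

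**Figure D5:**
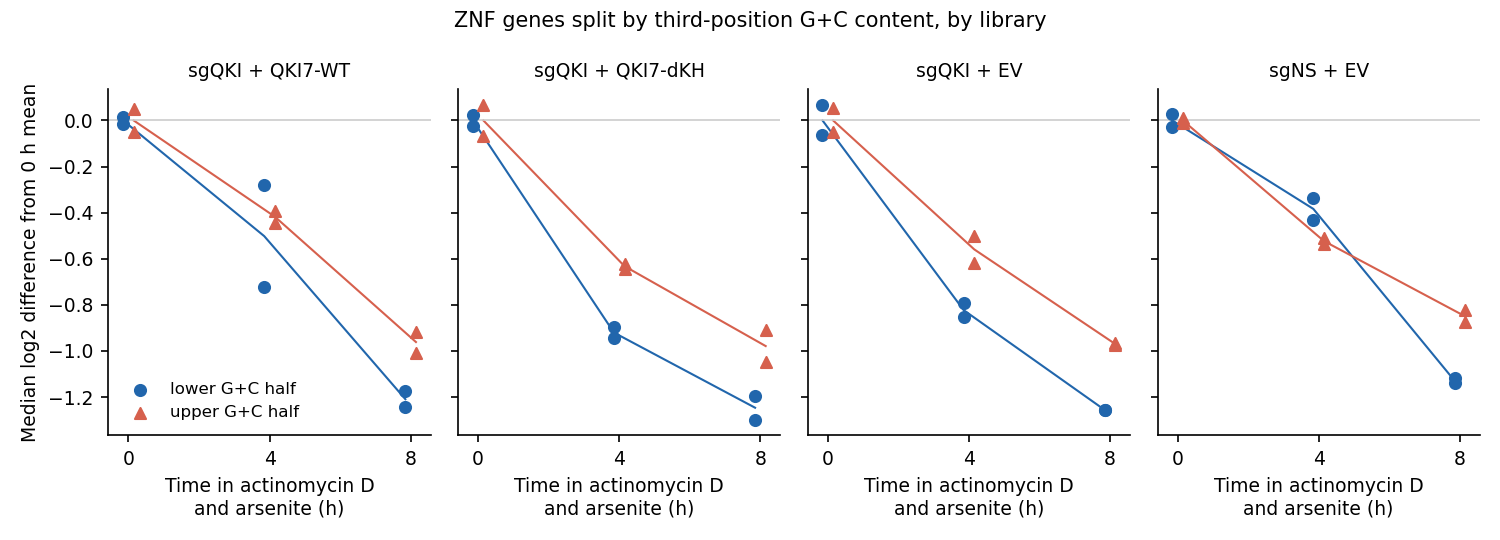
Median log2 difference from the 0 h mean of the same genotype (vertical axis) at 0, 4 and 8 h (horizontal axis) for the 93 ZNF genes with lower (circles) and the 93 with higher (triangles) G+C at codon position 3. Each point is 1 library and lines join group means. At 4 h the circles lie above the triangles in both sgNS+EV libraries and in 1 of the 2 QKI7-WT libraries, and below them in all other libraries, while at 8 h they lie below in all 8.

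From 4 h to 8 h in sgNS+EV cells, libraries that the choice of genes did not use, 150 of the 186 genes fell (64.9% of all genes fell) and 1 rose (1.46% of all genes). The median was -0.58, against -0.39 over all genes. ZNF644 (-1.64), ZNF830 (-1.45) and ZNF148 (-1.30), a regulator that binds G-rich promoters, fell furthest. ZNF524 (0.32; limma adjusted p = 0.020) was the gene that rose, and ZNF219 (0.23; adjusted p = 0.065) did not pass. The 93 genes with less G+C had a median of -0.74 and the 93 with more -0.35. With the G+C slope in the fit, 136 fell and 0 rose. After quantile normalisation 61 fell and 37 rose, and after scaling to library totals 136 fell and 7 rose.

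The change from 4 h to 8 h differed between sgQKI+EV and sgNS+EV cells at 17 genes. For 12 it was lower in sgQKI+EV cells (11.6% of all genes) and for 5 higher (1.39% of all genes). ZNF467 (-0.70), ZNF524 (-0.70), ZNF219 (-0.67), ZNF580 (-0.58), ZNF511 (-0.52), ZNF496 (-0.50), ZNF358 (-0.50) and ZNF428 (-0.49) led the first set, and ZNF148 (0.68), ZNF770 (0.68), ZNF654 (0.64), ZNF28 (0.58) and ZNF41 (0.51) made up the second. On library totals the balance turned round, with 86 higher and 3 lower, and in a fit of the compared groups alone 35 were higher and 17 lower. After quantile normalisation none was higher and 3 were lower. ZNF219 had 41.2 and 36.4 in sgQKI+EV cells, against 32.6 and 33.6 in sgNS+EV cells at 4 h and 28.1 and 28.2 in sgQKI+EV cells, against 37.03 and 40.9 in sgNS+EV cells at 8 h. All 5 higher genes were among the 93 with less G+C and all 12 lower ones among the 93 with more, and with the G+C slope in the fit none of the 186 passed. Since that slope came from the same values and differed between these genotypes at 4 h, this fit cannot tell the slope and the genotype apart. The count was 4 without sgNS+EV replicate 2 at 4 h, 10 without sgNS+EV replicate 1 at 8 h, and 0 without any 1 of sgNS+EV replicate 1 at 4 h, sgNS+EV replicate 2 at 8 h, sgQKI+EV replicate 1 at 4 h and either sgQKI+EV library at 8 h.

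The 2 forms of QKI7 gave no difference in loss that passed over the whole chase. For the change from 0 h to 8 h in QKI7-WT minus that in QKI7-dKH cells, 0 of the 186 genes passed in limma (0% of all genes), 0 had an unadjusted p under 0.05, and the values ran from -0.27 to 0.35 with a median of 0.003 and a median SE of 0.16. For QKI7-WT minus sgQKI+EV cells 0 passed (0% of all genes), 2 had an unadjusted p under 0.05, and the values ran from -0.37 to 0.40 with a median of 0.055. These values do not show that the genotypes act alike, since even the largest of them, -0.37 and 0.40, did not pass. The 72 genes with a QKI motif had a median of 0.011 and the 114 without it -0.001 in the first comparison over 8 h. For sgQKI+EV minus sgNS+EV over 8 h the median was -0.155, against -0.14 over all genes, again without a test.

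The comparison over the first 4 h was added after the data had been seen. There the median loss was smaller in QKI7-WT than in QKI7-dKH cells, for the ZNF genes as for all genes. The 0 h levels enter this comparison, and the 0 h median of QKI7-WT minus QKI7-dKH was -0.14, against -0.15 over all genes. The part of the starting levels in the difference was not tested. The change from 0 h to 4 h in QKI7-WT minus that in QKI7-dKH cells was higher at 23 of the 186 genes and lower at none. That was a smaller share than the 16.0% of all genes. In limma 88 had an unadjusted p under 0.05, and the median was 0.32 against 0.24 over all genes. ZNF260 (0.67), ZNF121 (0.62), ZNF239 (0.59), ZNF639 (0.58), ZNF131 (0.55), ZNF281 (0.53), ZNF791 (0.52) and ZNF664 (0.51) led. ZNF260 had 15.4 and 8.91 in QKI7-WT cells, against 8.33 and 8.07 in QKI7-dKH cells at 4 h, so 1 QKI7-WT library lay far above and 1 just above. Of its mean 0 h signal 77.44% was left at 4 h in QKI7-WT and 45.25% in QKI7-dKH cells. ZNF281 had 22.3 and 18.3 in QKI7-WT cells, against 15.6 and 15.7 in QKI7-dKH cells, where both QKI7-WT libraries also lay above. The count was 114 without QKI7-WT replicate 2 at 4 h and 0 without QKI7-WT replicate 1 at 4 h, without QKI7-WT replicate 2 at 0 h or without any 1 of the 4 QKI7-dKH libraries at 0 and 4 h. It was also 0 on library totals, after quantile normalisation and in a fit of the compared groups alone. It was 34 with the G+C slope of each library in the fit. Of the 93 genes with less G+C 17 were higher and of the 93 with more 6, and Spearman's rho with this share was -0.62. Of the 72 genes with a QKI motif 13 were higher, with a median of 0.37, and of the 114 without it 10, with a median of 0.28. Spearman's rho with the number of matches was 0.28, and 0.26 over 11328 matched genes.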

How the data were processed

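PolyA RNA of 4 U2OS genotypes at 3 times was sequenced in 24 libraries, 2 per group, from stranded libraries per the labels' protocols. STAR, RSEM and GRCh38 are named in the submitters' processing notes, with no versions or settings. The deposited values are a linear signal per gene that the authors had scaled, to ERCC spike-ins as far as the near-constant spike-in sums show. The unit before scaling is not given in the sources used here and read depth is unknown, so no counting intervals were made.

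Values were analysed as log2 of the signal plus 1 with limma 3.58.1 in R 4.3.3, in 1 fit over 12 groups (12 residual degrees of freedom) and 12547 genes without the 38 spike-in rows. A filter asking for a signal of 1 in 2 libraries removed 0 genes. P-values are two-sided and Benjamini-Hochberg adjusted, with a threshold of 0.05, and the fit was tested on simulated data. Fold changes on this scale understate those of low genes. Comparisons that use the sgNS+EV 0 h libraries, which chose the genes, have no p. The genes and lists were chosen with earlier results of these data known, and role, cofactor and family lists were written from general knowledge. Named genes were those at the rule's limits, the 8 largest and 8 smallest 8 h changes in sgQKI+EV cells, up to 8 passing in each direction per difference, and up to 4 per list. Any other gene named was chosen after its values were seen. Coding and UTR features came from GENCODE 29 and matched 11328 genes, with 1219 unmatched. Fingers and KRAB motifs were counted in translated coding sequences in place of the RefSeq proteins first planned. Alternatives were another constant of 0.1, no filter, library totals, quantile normalisation, a replicate block, a fit of only the groups compared, 4 h instead of 8 h, leaving out each library and, added after seeing the data, a G+C slope per library. That slope was estimated from the same values that were then tested.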

Additional observations from a re-analysis of the deposited data

Results flagged for a closer look

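The changes differed between genotypes in 2 comparisons that passed a test of the difference itself. The second of them was added after the data had been seen. In the first, the share lower was below that of all genes and the share higher above it. In the second, the share higher was below that of all genes. From 4 h to 8 h, sgQKI+EV minus sgNS+EV cells differed at 17 of 186 ZNF genes, 12 lower (11.6% of all genes) and 5 higher (1.39% of all genes), and the 8 lowest and 5 highest differences were -0.70 for ZNF467, -0.70 for ZNF524, -0.67 for ZNF219, -0.58 for ZNF580, -0.52 for ZNF511, -0.50 for ZNF496, -0.50 for ZNF358, -0.49 for ZNF428, 0.68 for ZNF148, 0.68 for ZNF770, 0.64 for ZNF654, 0.58 for ZNF28 and 0.51 for ZNF41. Over the first 4 h, QKI7-WT minus QKI7-dKH cells differed at 23 of 186 ZNF genes, all higher (16.0% of all genes), and the 8 highest differences were 0.67 for ZNF260, 0.62 for ZNF121, 0.59 for ZNF239, 0.58 for ZNF639, 0.55 for ZNF131, 0.53 for ZNF281, 0.52 for ZNF791 and 0.51 for ZNF664. In both, the sign or size went with G+C at codon position 3 (Spearman's rho over the 186 genes -0.73 and -0.62), and leaving out single libraries took the counts to 0. With a G+C slope per library, itself estimated from these values, the counts were 0 and 34. On library totals the first comparison gave 86 higher and 3 lower and the second gave 0. The part of library composition in these differences was not tested.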

How the results depend on the processing

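The counts of genes passing in either direction over 8 h moved by less than 1.5 times under every alternative run. The falls alone dropped to 93 of 185 in sgQKI+EV, 87 of 184 in QKI7-WT and 91 of 182 in QKI7-dKH cells after quantile normalisation, and library totals also split them by direction (10 higher and 141 lower in QKI7-dKH and 5 higher and 145 lower in QKI7-WT cells on totals). The 4 h to 8 h count in sgNS+EV cells was 98 after quantile normalisation. For sgQKI+EV minus sgNS+EV from 4 h to 8 h, the count of 17 became 3 after quantile normalisation, 89 on library totals (86 higher, 3 lower), 0 with the G+C slope and 52 with the compared groups alone. QKI7-WT minus QKI7-dKH at 0 h gave 1, 0 and 16 genes after quantile normalisation, on totals and with the G+C slope, against 2. QKI7-dKH minus sgQKI+EV at 0 h gave 2, 1, 29 and, with the groups alone, 23, against 8. For sgQKI+EV minus sgNS+EV the 8 h count of 57 became 8, 2 and 105 after quantile normalisation, on totals and with the groups alone, and the 4 h count of 120 became 7 with the G+C slope. For QKI7-WT minus QKI7-dKH over 4 h, 23 became 0 after quantile normalisation, on totals and with the groups alone. The replicate numbers do not pair the libraries (66 pairs of groups, correlations from -0.42 to 0.48, 21 over 0.1), and the replicate block gave 48 in that comparison and no other count moved by over 1.5 times. Leaving out 1 library gave 183 to 184 falls in sgQKI+EV, 178 to 182 in QKI7-dKH and 176 to 185 in QKI7-WT cells, 133 to 145 for sgNS+EV from 4 h to 8 h, and 0 for both QKI7-WT differences over 8 h and for QKI7-WT minus sgQKI+EV at 0 h. It gave 0 to 19 for the 4 h to 8 h difference, 0 to 1 and 0 to 6 at 0 h, 23 to 41 at 8 h, 68 to 108 at 4 h, and 0 to 114 over the first 4 h. The causes were not tested. After quantile normalisation, signs turned for the 8 h change in sgQKI+EV: ZNF23 0.665, ZNF428 0.546, ZNF205 0.662, ZNF444 0.672, ZNF133 0.704, ZNF32 0.52, ZNF593 0.608, ZNF771 0.767, ZNF622 0.107, ZNF598 0.323, ZNF219 0.278, ZNF512 0.417, ZNF274 0.154. After quantile normalisation, signs turned for the 8 h change in QKI7-WT: ZNF23 0.288, ZNF428 0.479, ZNF205 0.596, ZNF444 0.743, ZNF133 0.71, ZNF32 0.41, ZNF593 0.561, ZNF771 0.49, ZNF467 0.793. After quantile normalisation, signs turned for the 8 h change in QKI7-dKH: ZNF23 0.344, ZNF428 0.565, ZNF205 0.757, ZNF444 0.661, ZNF133 0.712, ZNF32 0.41, ZNF593 0.709, ZNF771 0.567. After quantile normalisation, signs turned for the 4 h to 8 h change in sgNS+EV: ZNF23 0.293, ZNF133 0.259, ZNF593 0.313. On library totals, signs turned for the 8 h change in sgQKI+EV: ZNF23 0.207, ZNF428 0.262, ZNF205 0.249, ZNF444 0.25, ZNF133 0.242, ZNF32 0.296, ZNF593 0.312, ZNF771 0.304, ZNF598 0.033, ZNF512 0.085. On library totals, signs turned for the 8 h change in QKI7-WT: ZNF428 0.227, ZNF205 0.195, ZNF444 0.33, ZNF133 0.213, ZNF32 0.26, ZNF593 0.301, ZNF771 0.021, ZNF467 0.31. On library totals, signs turned for the 8 h change in QKI7-dKH: ZNF428 0.359, ZNF205 0.417, ZNF444 0.318, ZNF133 0.274, ZNF32 0.277, ZNF593 0.486, ZNF771 0.167. On library totals, signs turned for the 4 h to 8 h change in sgNS+EV: ZNF593 0.114. On library totals, signs turned for the QKI7-dKH minus sgQKI+EV at 0 h: ZNF22 -0.011, ZNF185 -0.019. With 4 h in place of 8 h, signs turned for the 8 h change in sgQKI+EV: ZNF771 0.272, ZNF598 0.002. With 4 h in place of 8 h, signs turned for the 8 h change in QKI7-WT: ZNF444 0.134, ZNF593 0.187. With 4 h in place of 8 h, signs turned for the 8 h change in QKI7-dKH: ZNF428 0.003, ZNF593 0.299. Without 1 library, signs turned for the 8 h change in QKI7-dKH: ZNF593 -0.193 to 0.001. Without 1 library, signs turned for the 4 h to 8 h change in sgNS+EV: ZNF444 -0.006 to 0.11, ZNF593 -0.146 to 0.08. With the G+C slope, signs turned for the 4 h to 8 h change in sgNS+EV: ZNF23 0.169, ZNF428 -0.264, ZNF205 -0.194, ZNF444 -0.162, ZNF32 -0.1, ZNF771 -0.666, ZNF219 -0.161. With the G+C slope, signs turned for the sgQKI+EV minus sgNS+EV at 4 h: ZNF644 0.172, ZNF771 -0.19, ZNF511 -0.02.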
